A study of Mus musculus with 6 samples.

Results

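Interferons are antiviral cytokines whose receptors activate the Janus kinases JAK1 and TYK2, which phosphorylate STAT factors. STAT2 and IRF9 belong to the ISGF3 complex, which binds interferon-stimulated response elements in the promoters of interferon-stimulated genes. The products of these genes detect foreign or misplaced nucleic acids, pass on or restrain the signal, or block steps of viral replication, and several of the sensors and transcription factors are themselves interferon-induced, so that the pathway feeds on its own output. Adipocytes and preadipocytes carry the receptors of this pathway and respond to interferon.

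A list of 48 such genes and their regulators was chosen from the pathway with the values of MICT1 KO and Scr libraries from this same data set already in view. Of these names 45 stand as gene symbols in the deposited table of 13283 genes, namely 7 nucleic acid sensors and adaptors, 5 receptor chains and Janus kinases, 5 transcription factors and 28 effectors. Mx1 and Sp100 were not analysed here, and Tmem173, the gene of the adaptor STING, is listed under its newer symbol Sting1 and is given apart from the counts. Because the list was drawn up with the difference between the groups known, that difference is a description of the members here and supports nothing, and p is given only for genes outside the list.

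The cells, called BAT, are mouse brown preadipocytes of an immortalized line that stably expresses Cas9. Both groups were infected with lentivirus carrying an sgRNA, which targeted MICT1 in the MICT1 KO cells and was scrambled in the Scr cells, labelled as wild-type controls. The cells of all 6 libraries were put through the brown adipocyte differentiation protocol. They received 10 µM forskolin, an activator of adenylyl cyclase, for 6 h on day 6, with 3 libraries per group. The MICT1 KO cells are pools sorted for the GFP of the sgRNA construct, not clones, and both groups stem from 1 cell line. The labels do not tell which sgRNA pool a MICT1 KO library came from, and they do not say whether the 3 libraries of a group are separate cultures, so p-values measure the spread between these libraries only. The table holds a normalized signal per gene with totals of 16104616 to 16616825 per library, or about 15445728 to 17925587 reads, and it leaves out any gene that is at 0 in a library. MICT1, the targeted gene, was not analysed here, and the labels were not checked on it.

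The label of brown adipocytes held for the Scr libraries in part. All 8 adipocyte markers were lower in MICT1 KO, with a summed signal of 75080.3 to 88773 in Scr and 6009 to 9928 in MICT1 KO libraries. Of 7 brown adipocyte markers only Ucp1 and Ppargc1a are listed. Ucp1 read 20.8, 24.1 and 30.5 in Scr against 1.91, 1.05 and 9.33 in MICT1 KO libraries. Adipoq and Ucp1 were tested only because of their Scr values. Ppargc1a read 8.90, 5.56 and 2.04 in Scr against 5.72, 15.8 and 1.04 in MICT1 KO libraries, too low to be tested, and the groups overlapped. In bulk RNA fewer cells of a type and less RNA per cell cannot be told apart. Of 16 immune cell markers 12 are not listed, among them Ptprc, Adgre1 and Itgam. Cd68, Csf1r and Mrc1 did not pass the test between the groups, and Cd14, which fibroblasts and adipocytes also express, was higher with 129.6, 231 and 217 in Scr against 465, 480.5 and 388 in MICT1 KO libraries, so that the summed signal of the 4 listed markers was 267 to 384 in Scr and 516 to 638 in MICT1 KO libraries. Of 4 endothelial markers only Cdh5 is listed, at 5.93, 12.1 and 8.14 in Scr against 33.4, 30.6 and 25.9 in MICT1 KO libraries. Preadipocyte and fibroblast markers went both ways, with Pdgfrb, Col1a1 and Ly6a higher, Pdgfra and Dlk1 lower and Col3a1 not called. Cd34 was too low to be tested, and Thy1 is not listed. Their summed signal was 36489.7 to 41758 in Scr and 49729.5 to 53503 in MICT1 KO libraries. The sum mostly follows Col1a1, with a mean of 17955 in Scr and 30595 in MICT1 KO libraries, beside 16430 and 15855 for Col3a1. The part of the lower adipocyte markers and of these other cell type markers in the values below was not tested.

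Before the expression values, a sequence feature of the promoters of the members is described. Many members were chosen as interferon-stimulated genes, in whose promoters the interferon-stimulated response element lies. A high share of it among them is therefore not independent of that choice and supports nothing. The core of the interferon-stimulated response element was searched as the letters GAAA, any 2 bases and GAAA again, on both strands, in the window from 250 before to 50 after each start of transcription (RefSeq, GRCm38.p6). Matches may overlap each other. At least 1 match was found for 14 of the 38 members in the promoter table used (36.8%), against 3.44% of 32851 promoters and 354 of the 9995 tested genes with a promoter (3.54%). The stretches below are those of the 5 members with matches and the largest log2 fold changes among members with a signal of at least 10 in all libraries. They are written 5′ to 3′ on the strand of the gene, with the matches in capitals, as the 150 bases before the start for Ifit1 (chr19:34640739-34640888, plus strand), Isg15 (chr4:156200819-156200968, minus strand) and Oas1a (chr5:120907526-120907675, minus strand), and as 30 bases around the match for Ifih1 (chr2:62646206-62646235, minus strand) and Ddx58 (chr4:40239804-40239833, minus strand), where it lies after the start.
Ifit1: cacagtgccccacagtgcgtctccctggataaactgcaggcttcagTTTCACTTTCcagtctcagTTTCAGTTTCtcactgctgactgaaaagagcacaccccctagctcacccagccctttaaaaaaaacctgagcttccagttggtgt
Isg15: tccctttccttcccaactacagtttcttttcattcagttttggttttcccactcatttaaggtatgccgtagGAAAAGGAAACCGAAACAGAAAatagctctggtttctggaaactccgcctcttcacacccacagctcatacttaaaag
Oas1a: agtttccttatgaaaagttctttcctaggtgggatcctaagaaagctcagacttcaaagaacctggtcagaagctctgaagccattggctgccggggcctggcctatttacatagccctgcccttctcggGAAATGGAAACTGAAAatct
Ifih1: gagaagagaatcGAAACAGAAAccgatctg
Ddx58: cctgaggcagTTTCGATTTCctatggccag

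The Isg15 promoter held 3 matches that overlap each other in an unbroken stretch from base -78 to base -57, and that of Oas1a held 2 overlapping matches between -20 and -5. The start used for Oas1a lies inside the span of the gene, which reaches 120907544 on chromosome 5, so its matches fall almost wholly within that span. In Ifit1 both matches, from -104 to -95 and from -85 to -76, read on the other strand. Rsad2 held 1 match, from -120 to -111, and Stat2 1 match, from -222 to -213, both on the other strand. Ifih1, Ddx58, Ifitm3 and Eif2ak2 held their matches only after the start. The remaining 7 members were not in the promoter table used here and were not searched.

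Signals were compared as log2(signal + 1) with limma-trend over the 12507 genes that reached a signal of 10 in 3 libraries or more, and a gene was called at a Benjamini-Hochberg adjusted p under 0.05. On this scale the fold of a gene of low signal is smaller than that of the signals themselves. Of the 45 members 44 were tested. Of these 32 were called higher in MICT1 KO and 4 lower, and 8 were not called, beside 28.5% of all tested genes called higher and 28.3% called lower. At least 2-fold higher were 20 members, beside 7.99% of all tested genes. The median log2 fold change of the members was 0.97, and that of all tested genes -0.0053. The 3 MICT1 KO values lay above the 3 Scr values in 30 members and below them in 4, beside 30.9% and 31.2% of all tested genes. Ifit3, Oasl1, Mx2, Rsad2, Ifi44 and Xaf1 had a signal of at least 10 in fewer than 3 Scr libraries, so that they were tested only because of their MICT1 KO values. The filter thus favours a difference in these members, and their calls support nothing.

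**Figure D1:**
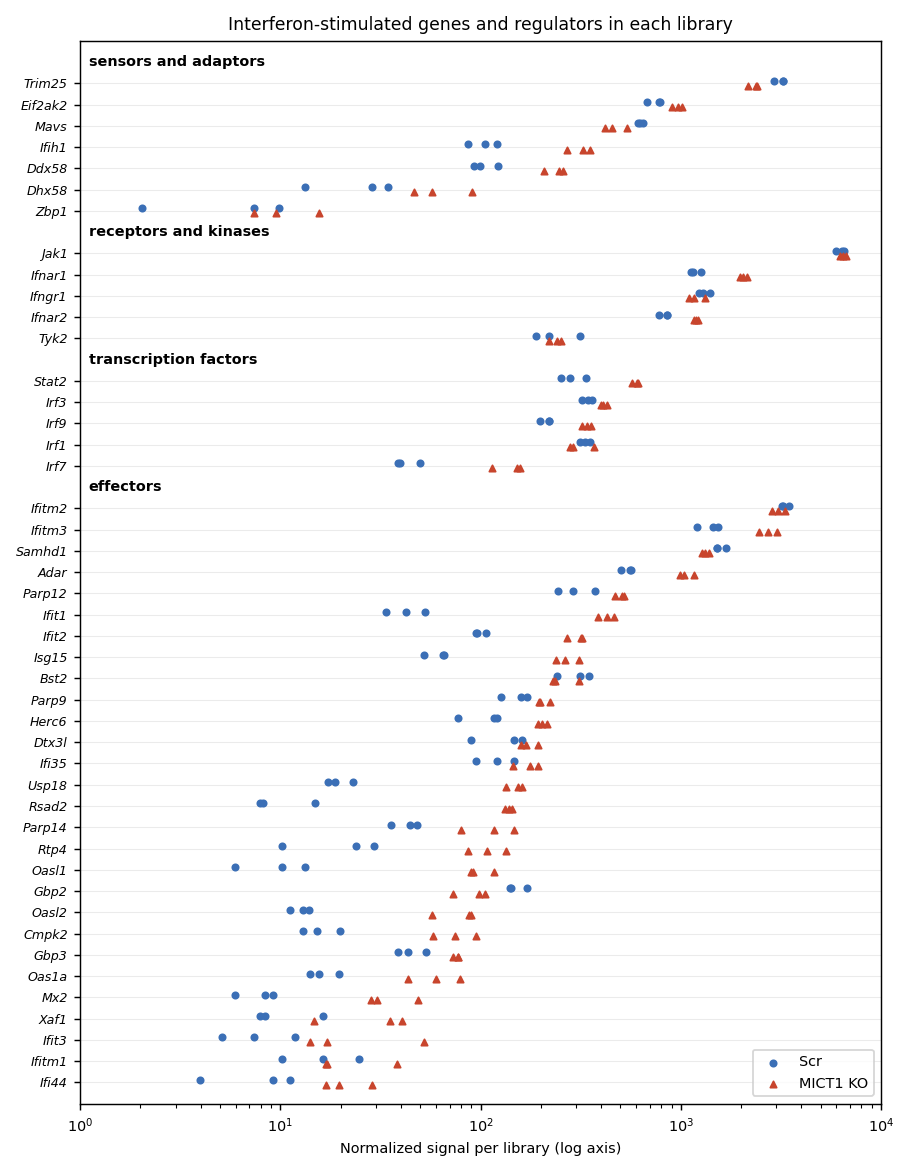
Normalized signal of the 45 members in each of the 3 Scr (circles) and 3 MICT1 KO libraries (triangles) on a log axis, by role and in order of the MICT1 KO mean. The triangles stand apart to the right for most effectors of low Scr signal. The groups overlap for Zbp1, Ifngr1, Jak1, Tyk2, Irf1, Ifitm1, Ifitm2, Bst2, Dtx3l, Ifi35 and Xaf1.

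Of the 14 members with a promoter match 11 were called higher, 1 was called lower, namely Gbp2, and Ifitm2 and Bst2 were not called. Beside them, 36.7% of the 354 tested genes with a match were called higher and 25.4% lower. Rsad2 and Ifit3 were tested only because of their MICT1 KO values, and their calls support nothing. Of the 24 members searched with no match, 15 were called higher and 3 lower, beside 28.1% and 28.7% of the 9641 tested genes without one. A match in this window was thus not shared by all members that were higher, Oasl1, Ifit2 and Irf7 among those without it. Of those without it, Oasl1, Ifi44 and Xaf1 were tested only because of their MICT1 KO values. These counts fall among members whose difference was known when they were chosen.

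**Figure D2:**
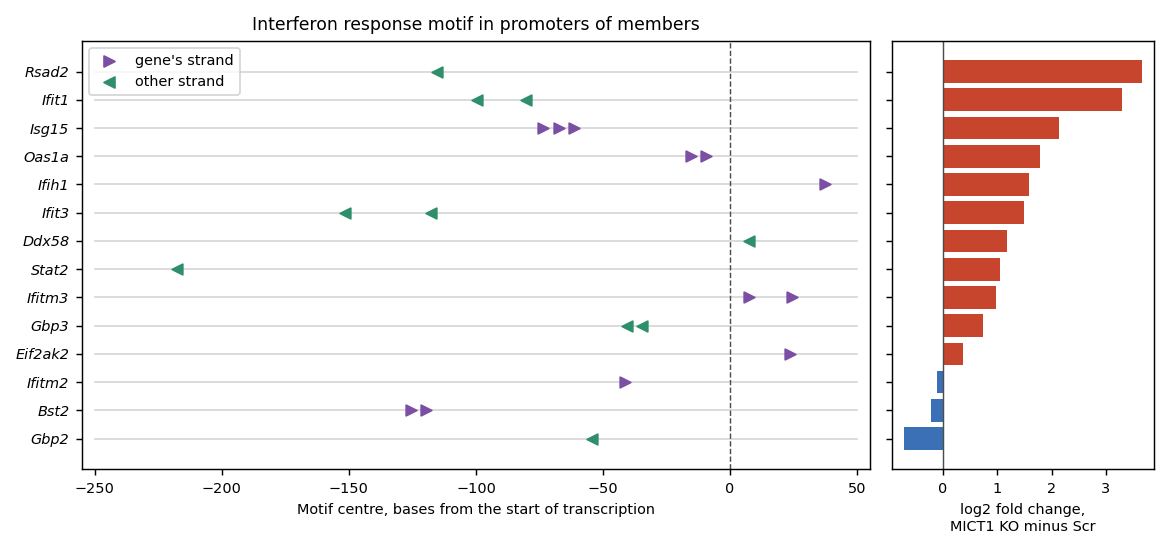
Matches to the response element core in the promoters of 14 members (left, triangles at the centre of each match in bases from the start of transcription, pointing right on the strand of the gene and left on the other strand) beside the log2 fold change of each gene between MICT1 KO and Scr libraries (right). The members are ordered by log2 fold change, from 3.67 for Rsad2 to -0.72 for Gbp2. Members without a match are not drawn, so the order shows no relation between matches and fold change.

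Among the nucleic acid sensors, the genes of the 3 RNA helicases and Eif2ak2 were higher in MICT1 KO and those of MAVS and TRIM25 lower. These are 4 and 2 of the 6 tested, beside 28.5% and 28.3% of all tested genes, with a median log2 fold change of 0.77. Ifih1, which encodes MDA5, the sensor of long double-stranded RNA, read 106, 121 and 86.5 in Scr against 271, 323 and 352 in MICT1 KO libraries for a log2 fold change of 1.59 (SE 0.16). Ddx58, the gene of RIG-I, which binds RNA with triphosphate ends, read 122, 92.7 and 99.7 in Scr against 259, 209 and 246 in MICT1 KO libraries (log2 fold change 1.18, SE 0.17). Dhx58, the gene of the helicase LGP2 that modulates both, read 28.7, 34.3 and 13.2 in Scr against 57.2, 46.4 and 90.2 in MICT1 KO libraries (log2 fold change 1.36, SE 0.36). In all 3 helicases every MICT1 KO library was above every Scr library. Eif2ak2, the gene of the RNA-activated kinase PKR, was higher by a smaller amount, at 777, 678 and 789 in Scr against 902, 967 and 1011 in MICT1 KO libraries (log2 fold change 0.36, SE 0.082). Mavs, the mitochondrial adaptor through which RIG-I and MDA5 signal, was lower at 628, 611 and 646 in Scr against 417, 452 and 542 in MICT1 KO libraries (log2 fold change -0.43, SE 0.10). Trim25, the ubiquitin ligase that acts on RIG-I, was lower too, at 3229, 3241 and 2920.5 in Scr against 2382, 2396 and 2164 in MICT1 KO libraries (log2 fold change -0.44, SE 0.062). In Eif2ak2 the MICT1 KO values lay above the Scr values without overlap, and in Mavs and Trim25 below them. Zbp1, a sensor of Z-form nucleic acids, read 9.89, 7.42 and 2.04 in Scr against 9.53, 7.38 and 15.5 in MICT1 KO libraries, too low to be tested, and the groups overlapped. Sting1, the adaptor of the cytosolic DNA sensor cGAS, read 108, 108 and 101 in Scr against 258, 283 and 222 in MICT1 KO libraries (log2 fold change 1.26, SE 0.16), with the groups apart.

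Of the 5 receptor and kinase genes, the chains of the type I receptor were called higher, beside 28.5% of all tested genes. The remaining 3 were not called, and the median log2 fold change of the 5 was 0.039. Ifnar1 read 1257, 1152 and 1132 in Scr against 1969.6, 2059 and 2135 in MICT1 KO libraries (log2 fold change 0.80, SE 0.066). Ifnar2 read 856, 776 and 854 in Scr against 1220.3, 1185 and 1167 in MICT1 KO libraries (log2 fold change 0.52, SE 0.073). For both chains the groups did not overlap. Ifngr1, the ligand-binding chain of the interferon gamma receptor, read 1228, 1299 and 1398 in Scr against 1169, 1100.0 and 1316 in MICT1 KO libraries (log2 fold change -0.13, SE 0.077). Jak1 read 6378, 6538 and 5994 in Scr against 6711, 6467 and 6245 in MICT1 KO libraries (log2 fold change 0.039, SE 0.054) and was the most abundant member by signal. Tyk2, the kinase bound to IFNAR1, read 313, 219 and 189 in Scr against 254, 241 and 219.7 in MICT1 KO libraries (log2 fold change 0.018, SE 0.16), and in these 3 genes the groups overlapped. Without KO replicate 3, Ifngr1 was called lower (log2 fold change -0.20). None of 18 genes of interferon ligands, Ifnb1 and the Ifna genes included, is listed, and since genes at 0 in any library are left out, a signal in some libraries only would not be seen.

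Of the 5 transcription factors 4 were called higher, beside 28.5% of all tested genes, with a median log2 fold change of 0.67. Irf7, the interferon-induced factor that drives type I interferon genes, read 39.6, 50.1 and 38.7 in Scr against 157, 114 and 151 in MICT1 KO libraries for a log2 fold change of 1.69 (SE 0.23). Stat2 read 335, 253 and 281 in Scr against 611, 568 and 605 in MICT1 KO libraries (log2 fold change 1.04, SE 0.11). Irf9, its partner in ISGF3, read 221, 198 and 221 in Scr against 358, 341 and 320.3 in MICT1 KO libraries (log2 fold change 0.67, SE 0.12). In each of these the MICT1 KO libraries were above the Scr libraries. Irf3, the constitutive factor downstream of MAVS and STING, read 344, 319.8 and 362 in Scr against 399, 407 and 426 in MICT1 KO libraries (log2 fold change 0.26, SE 0.11), and it was not called without control replicate 1, control replicate 2, KO replicate 2 or KO replicate 3 (0.27, 0.22, 0.27 and 0.24 on the log2 scale). Irf1, a factor induced strongly by interferon gamma, read 354, 333 and 315 in Scr against 291, 280.3 and 369 in MICT1 KO libraries (log2 fold change -0.10, SE 0.12), with overlapping groups.

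**Figure D3:**
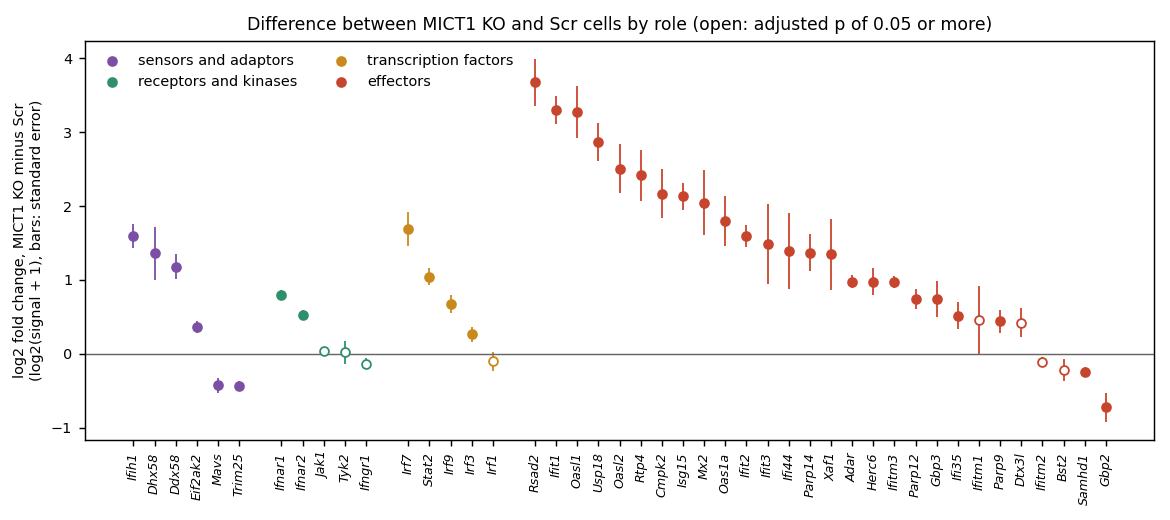
Log2 fold change of the 44 tested members between MICT1 KO and Scr libraries (points, bars for the standard error), by role, with open points for members that were not called. Effectors run from 3.67 for Rsad2 to -0.72 for Gbp2, and the receptor chains and kinases lie between -0.13 and 0.80.

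The effectors held the members with the largest differences. Of 28, 22 were called higher and 2 lower, beside 28.5% and 28.3% of all tested genes. Their median log2 fold change was 1.36. The 6 members tested only because of their MICT1 KO values are all effectors, and their calls support nothing. With a signal of at least 10 required in all 6 libraries, 16 of 22 effectors were called higher and 2 lower. Of all genes under this filter, 3353 were called higher and 3405 lower. The median of the effectors was then 0.97. Of the IFIT proteins, which bind viral RNA and block its translation, Ifit1 read 42.5, 52.8 and 33.6 in Scr against 430.0, 385 and 465 in MICT1 KO libraries for a log2 fold change of 3.30 (SE 0.19) or 9.85-fold. Ifit2 read 107, 94.6 and 95.7 in Scr against 319, 269.7 and 316 in MICT1 KO libraries (log2 fold change 1.60, SE 0.15). Ifit3 read 11.9, 7.42 and 5.09 in Scr against 17.2, 14.0 and 51.9 in MICT1 KO libraries (log2 fold change 1.48, SE 0.54), and its difference rested much on KO replicate 3. Without that library the log2 fold change of Ifit3 was 0.92 and it was not called, nor was it without control replicate 2 (1.46) or control replicate 3 (1.23). The signal of Ifit3 was a whole number of reads, within 0.02 of a read, in 4 of the 6 libraries.

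Isg15, a ubiquitin-like protein that is attached to other proteins, read 65.3, 65.8 and 51.9 in Scr against 264, 237 and 309.9 in MICT1 KO libraries (log2 fold change 2.13, SE 0.18). Usp18, the protease that removes ISG15 and also restrains IFNAR2 signaling, read 18.8, 23.2 and 17.3 in Scr against 154, 161 and 135 in MICT1 KO libraries for a log2 fold change of 2.87 (SE 0.25) or 7.31-fold. Herc6, the mouse ligase for ISG15, read 121, 76.9 and 117 in Scr against 194, 203 and 214 in MICT1 KO libraries (log2 fold change 0.98, SE 0.18). The groups were apart in all 3 genes, and the inhibitor Usp18 differed more than Isg15 or the ligase in this comparison, with no test of the difference between genes. Per exon length, Isg15 went from 4.93 ± 0.645 RPKM (SD, n = 3) in Scr to 21.9 ± 3.04 RPKM (SD, n = 3) in MICT1 KO libraries. Usp18 went from 0.432 ± 0.0619 RPKM (SD, n = 3) in Scr to 3.30 ± 0.295 RPKM (SD, n = 3) in MICT1 KO libraries.

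Of the oligoadenylate synthetase family, Oasl1 read 5.93, 10.2 and 13.2 in Scr against 89.6, 91.7 and 117 in MICT1 KO libraries for a log2 fold change of 3.27 (SE 0.35). Oasl2 read 13.8, 13.0 and 11.2 in Scr against 89.6, 87.5 and 57.0 in MICT1 KO libraries (log2 fold change 2.51, SE 0.33). Oas1a, a synthetase that activates the RNA-degrading RNase L, read 19.7, 14.1 and 15.6 in Scr against 79.2, 43.3 and 60.2 in MICT1 KO libraries (log2 fold change 1.79, SE 0.34). All MICT1 KO libraries were above all Scr libraries in these 3 genes. The signal of Oas1a was no whole number of reads in any library, as when reads are split between near-identical genes, so its share against the Oas1 paralogs is uncertain.

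The large GTPases differed in direction. Mx2, a dynamin-like restriction factor, read 5.93, 8.34 and 9.16 in Scr against 30.5, 28.4 and 48.7 in MICT1 KO libraries (log2 fold change 2.04, SE 0.44). Gbp3 read 53.4, 43.6 and 38.7 in Scr against 77.2, 72.7 and 76.7 in MICT1 KO libraries (log2 fold change 0.74, SE 0.25). Gbp2 went the other way at 171, 141 and 142 in Scr against 105, 72.7 and 98.5 in MICT1 KO libraries (log2 fold change -0.72, SE 0.19). Both guanylate-binding protein genes are known as targets of interferon gamma, and they lie 47.4 kb apart on chromosome 3 (from 142560016 to 142638008, GRCm38.p6), with groups that did not overlap in either. Gbp3 was not called without control replicate 3 (log2 fold change 0.64).

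Of the membrane restriction factors only Ifitm3, which blocks the fusion of viruses in endosomes, was called, with 1456, 1539 and 1205 in Scr against 2741, 2461 and 3032 in MICT1 KO libraries (log2 fold change 0.97, SE 0.084). Its MICT1 KO values lay above the Scr values without overlap. Its neighbours on chromosome 7 (from 140954837 to 141010744, GRCm38.p6) are Ifitm2 and Ifitm1. Ifitm2 read 3209, 3475 and 3229 in Scr against 3323, 2842 and 3049.5 in MICT1 KO libraries (log2 fold change -0.11, SE 0.063). Ifitm1 read 24.7, 10.2 and 16.3 in Scr against 17.2, 16.9 and 38.4 in MICT1 KO libraries (log2 fold change 0.45, SE 0.46), and in both the groups overlapped. Per exon length Ifitm2 was the most abundant member in both groups, going from 308 ± 9.85 RPKM (SD, n = 3) in Scr to 287 ± 21.1 RPKM (SD, n = 3) in MICT1 KO libraries. Ifitm3 went from 126 ± 15.4 RPKM (SD, n = 3) in Scr to 248 ± 26.1 RPKM (SD, n = 3) in MICT1 KO libraries. Bst2, the gene of tetherin, which holds budding virions at the cell surface, read 240.3, 313 and 347 in Scr against 235, 229.7 and 309 in MICT1 KO libraries (log2 fold change -0.22, SE 0.15), again with overlap. Without control replicate 1 Bst2 was called lower (-0.37), and Ifitm2 was called lower without KO replicate 1 (-0.17).

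Rsad2, the gene of viperin, which makes a chain-terminating nucleotide from CTP, showed the largest log2 fold change of all members, 3.67 (SE 0.32) or 12.8-fold, with 7.91, 14.8 and 8.14 in Scr against 138, 143 and 133 in MICT1 KO libraries. Cmpk2, the mitochondrial nucleotide kinase next to it on chromosome 12 (12.7 kb apart), read 19.8, 13.0 and 15.3 in Scr against 95.3, 57.9 and 74.6 in MICT1 KO libraries (log2 fold change 2.17, SE 0.33). Samhd1, which degrades deoxynucleotides, went the other way at 1691, 1522 and 1515 in Scr against 1382, 1275 and 1316 in MICT1 KO libraries (log2 fold change -0.25, SE 0.068). None of these 3 genes had overlapping groups. Adar, the gene of the RNA-editing enzyme that marks double-stranded RNA as self, read 559, 562 and 502 in Scr against 1044, 991 and 1164 in MICT1 KO libraries (log2 fold change 0.98, SE 0.085), with the groups apart.

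The ADP-ribosyltransferase genes were higher with smaller differences. Parp14, a macro domain protein, read 44.5, 48.2 and 35.6 in Scr against 80.1, 117 and 147 in MICT1 KO libraries (log2 fold change 1.37, SE 0.26). Parp12, which is recruited to stress granules, read 289.8, 245 and 374 in Scr against 519.6, 469.9 and 511 in MICT1 KO libraries (log2 fold change 0.74, SE 0.13). Both had groups apart, as did Parp9, at 126, 159 and 171 in Scr against 197, 196 and 221 in MICT1 KO libraries (log2 fold change 0.44, SE 0.16). Dtx3l, the ubiquitin ligase that pairs with PARP9, read 147, 89.9 and 162 in Scr against 159, 168 and 193 in MICT1 KO libraries (log2 fold change 0.42, SE 0.20) and was not called. Parp9 and Dtx3l overlap on chromosome 16, and in both the signal was a whole number of reads in only 1 of the 6 libraries, so that how reads were split between them is uncertain. Parp9 was not called without control replicate 1 (0.31) or KO replicate 3 (0.38), and Dtx3l was called without control replicate 3 (0.59).

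Among the remaining effectors, Rtp4, a chaperone of membrane receptors that also binds RNA, read 23.7, 10.2 and 29.5 in Scr against 133, 86.4 and 108 in MICT1 KO libraries (log2 fold change 2.41, SE 0.34). Ifi44, of unsettled function, read 3.96, 11.1 and 9.16 in Scr against 28.6, 16.9 and 19.7 in MICT1 KO libraries (log2 fold change 1.39, SE 0.52). Xaf1, a pro-apoptotic binding partner of XIAP, read 7.91, 8.34 and 16.3 in Scr against 35.3, 14.8 and 40.4 in MICT1 KO libraries (log2 fold change 1.35, SE 0.48). Rtp4 and Ifi44 had groups that did not overlap, and Xaf1 overlapped through control replicate 3 and KO replicate 2. Ifi35, a partner of the factor NMI, read 121, 147 and 94.6 in Scr against 176, 145 and 194 in MICT1 KO libraries (log2 fold change 0.52, SE 0.19), with overlapping groups. Xaf1 was not called without control replicate 1, control replicate 2, KO replicate 1 or KO replicate 3 (lowest log2 fold change 1.08). Ifi35 was not called without control replicate 3, KO replicate 1 or KO replicate 3 (lowest 0.35), nor Ifi44 without control replicate 1 or KO replicate 1 (at most 1.18).

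Per exon length most members were low. In Scr libraries 21 of the 45 members had a mean under 1 RPKM, against 7 of 45 in MICT1 KO libraries, and 22 reached 4 RPKM in at least 1 library. Ifit1 went from 0.988 ± 0.213 RPKM (SD, n = 3) in Scr to 9.84 ± 0.944 RPKM (SD, n = 3) in MICT1 KO libraries. Rsad2, with the largest log2 fold change, went from 0.145 ± 0.0531 RPKM (SD, n = 3) in Scr to 1.95 ± 0.0744 RPKM (SD, n = 3) in MICT1 KO libraries and so stayed below Ifit1 and Isg15 in level. In the MICT1 KO group replicate 2 gave the lowest of the 3 signals in 28 of 45 members and replicate 3 the highest in 24, and in the Scr group replicate 3 was lowest in 20. For the 24 members with a mean signal of at least 100 in both groups, the median coefficient of variation was 7.34% among Scr and 7.05% among MICT1 KO libraries.

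The rest of the pathway was read from lists made from knowledge of the pathway, though with earlier results of these libraries known, so that their counts are not independent of those results. Here p is from limma-trend and adjusted over all 12507 genes. Of 29 other regulators tested, 6 were higher and 8 lower with an adjusted p under 0.05, or 20.7% and 27.6% beside 28.5% and 28.3% of all tested genes. Their median log2 fold change was 0.026, and it was below 0 without control replicate 1, KO replicate 1 or KO replicate 3 (lowest -0.015). Irf5, a factor downstream of Toll-like receptors, rose from 133, 76.3 and 75.1 in Scr to 434, 429 and 363 in MICT1 KO libraries (log2 fold change 2.14, SE 0.19, adjusted p = 3.43e-09 from limma-trend). Its signal was a whole number of reads in 0 of 6 libraries, so how reads were split between it and other genes is uncertain. Irf4, a factor with known roles in adipocytes as well as in lymphocytes, read 29.7, 49.1 and 36.6 in Scr against 5.72, 4.21 and 1.04 in MICT1 KO libraries (log2 fold change -3.22, SE 0.55). Irf4 was tested only because of its Scr values, since no MICT1 KO library reached a signal of 10, and no p is given for it.

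Feedback inhibitors went in different directions. Socs1, an inhibitor of Janus kinases, rose from 103, 123 and 95.7 to 244, 229 and 231 (log2 fold change 1.13, SE 0.16, adjusted p = 3.89e-06 from limma-trend), whereas Socs3 fell (log2 fold change -0.39, SE 0.061, adjusted p = 1.71e-05 from limma-trend), as did the phosphatase gene Ptpn6 (log2 fold change -1.60, SE 0.26, adjusted p = 2.03e-05 from limma-trend). Ikbke, a kinase of IRF3 and IRF7, rose (log2 fold change 1.27, SE 0.27, adjusted p = 4.46e-04 from limma-trend), while for Tbk1, the related kinase, the log2 fold change was 0.026 (SE 0.077, adjusted p = 0.79 from limma-trend). Tbkbp1, an adaptor of TBK1, fell (log2 fold change -1.76, SE 0.15, adjusted p = 2.66e-09 from limma-trend). So did Rnf125, a ubiquitin ligase (log2 fold change -0.56, SE 0.060, adjusted p = 1.01e-07 from limma-trend), and Cgas, the DNA sensor upstream of STING (log2 fold change -0.24, SE 0.076, adjusted p = 0.0109 from limma-trend). The receptor chain genes Ifngr2 (log2 fold change 0.50, SE 0.084, adjusted p = 3.08e-05 from limma-trend) and Il10rb (log2 fold change 0.38, SE 0.080, adjusted p = 3.81e-04 from limma-trend) rose. For Irf2 the log2 fold change was 0.032 (SE 0.089, adjusted p = 0.782 from limma-trend), and for Tlr3, an endosomal sensor of double-stranded RNA, it was 0.11 (SE 0.32, adjusted p = 0.792 from limma-trend). Cgas did not pass without control replicate 3 (log2 fold change -0.16).

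The list of other interferon-induced genes holds no chemokine genes. Of 56 tested, 30 were called higher and 9 lower, beside the 28.5% and 28.3% of all tested genes, and the median log2 fold change was 0.44. Oas1b, Oas1g, Ddx60 and Iigp1 reached a signal of 10 in fewer than 3 Scr libraries and Trim14 in none of the MICT1 KO libraries. Each was thus tested only because of the group where it is high, and no p is given for it. Iigp1 was not called, and its groups overlapped. With a signal of at least 10 required in all 6 libraries, 27 of 51 were called higher and 8 lower. Of all genes under this filter, 3353 were called higher and 3405 lower. Oas1b, an oligoadenylate synthetase relative, read 12.9, 17.6 and 3.05 in Scr against 82.9, 105 and 56.0 in MICT1 KO libraries (log2 fold change 2.98, SE 0.47, and 2.31 without control replicate 3). Ddx60, a helicase that promotes RIG-I signaling, read 5.93, 12.1 and 19.3 in Scr against 69.6, 70.6 and 91.2 in MICT1 KO libraries (log2 fold change 2.66, SE 0.39). Oas1g read 2.07, 6.26 and 1.66 in Scr against 26.6, 10.4 and 56.9 in MICT1 KO libraries (log2 fold change 2.76, SE 0.66, and 3.36 without KO replicate 2). In these 3 genes the groups did not overlap. The apolipoprotein L genes Apol9a (log2 fold change 2.45, SE 0.22, adjusted p = 4.40e-09 from limma-trend) and Apol9b (log2 fold change 2.22, SE 0.27, adjusted p = 4.11e-07 from limma-trend) rose. The signals of Oas1g, Apol9a and Apol9b were fractions of reads, and how reads were split between these close paralogs is uncertain.

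Trim14, an adaptor at MAVS, read 26.7, 11.1 and 29.5 in Scr against 0.953, 3.16 and 7.26 in MICT1 KO libraries (log2 fold change -2.42, SE 0.66), with the groups apart. Cd274, the gene of the checkpoint ligand PD-L1 and a known target of interferon gamma, fell from 237, 175 and 233 in Scr to 36.2, 68.5 and 49.8 in MICT1 KO libraries (log2 fold change -2.08, SE 0.23, adjusted p = 1.08e-07 from limma-trend). Ifi27l2a (log2 fold change -1.04, SE 0.34, adjusted p = 0.0128 from limma-trend), the necroptosis gene Mlkl (log2 fold change -0.76, SE 0.13, adjusted p = 3.87e-05 from limma-trend) and Shisa5 (log2 fold change -0.46, SE 0.072, adjusted p = 1.35e-05 from limma-trend) fell as well. Ifi27l2a did not pass without KO replicate 2 (log2 fold change -0.81). Neither direction was shared by the whole list.

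**Figure D4:**
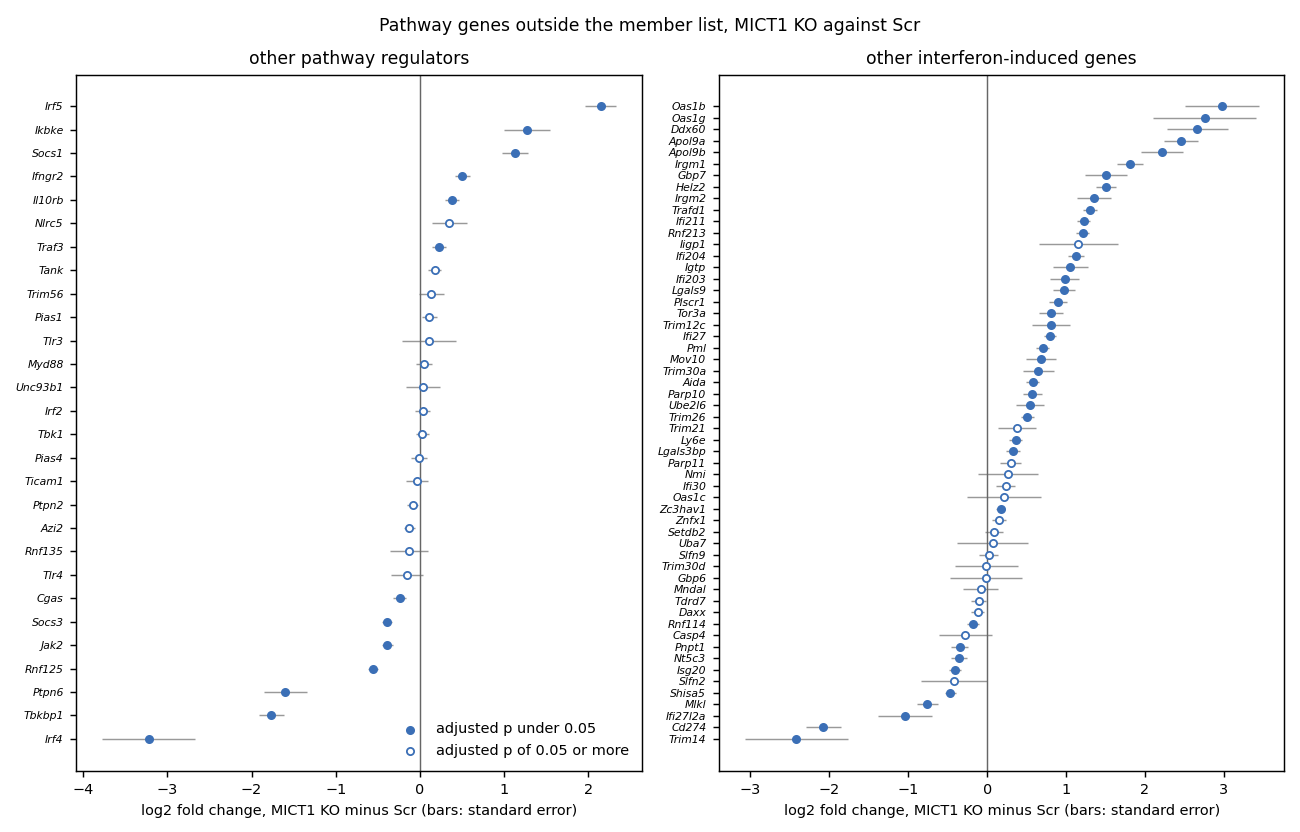
Log2 fold change between MICT1 KO and Scr libraries (points, bars for the standard error) of 28 of the 29 other pathway regulators (left) and 56 other interferon-induced genes (right), filled where the adjusted p was under 0.05. The regulators run from -3.22 for Irf4 to 2.14 for Irf5 and the induced genes from -2.42 for Trim14 to 2.98 for Oas1b.

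Some members are neighbours in the genome. Ifit2, Ifit3 and Ifit1 lie on chromosome 19 from 34550550 to 34650009 (GRCm38.p6), Oasl2 and Oasl1 on chromosome 5 from 114896926 to 114937911, Rsad2 and Cmpk2 on chromosome 12 from 26442743 to 26479837, and Ifnar2 and Ifnar1 on chromosome 16 from 91372783 to 91510523. In each of these groups all genes were called higher, as were 32 of the 44 members tested and 28.5% of all tested genes. Ifit3, Oasl1 and Rsad2 were tested only because of their MICT1 KO values, and their calls support nothing. The neighbours Gbp3 and Gbp2, described above, went in opposite directions. In the Ifitm group only Ifitm3 was called higher, and Ifitm2 and Ifitm1 were not called. On chromosome 16 from 35831892 to 35972621, Parp14 and Parp9 were called higher and Dtx3l, which lies between them, was not called.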

How the data were processed

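The 6 libraries were sequenced by the study, and reads were not processed again. The authors deposited a normalized signal per gene. Alignment used Partek software, as the methods state, with build NCBI38/mm10, and the submitters' processing notes name Partek, STAR and DESeq2 without a role. The counting model and annotation are not given in the sources used here. Between 88.7 and 90.4% of signals under 20 were whole multiples, within 0.01, of a step that differed between libraries, taken as the value of 1 read (0.927 to 1.05), so the signal was taken to be an estimate of reads over a size factor. For single genes the tolerance was 0.02 of a read. The signal is not counts, and no count test was run.

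The fit used limma 3.58.1 in R 4.3.3 on log2(signal + 1), with log2 fold changes that understate the change of genes with low signals, and Benjamini-Hochberg adjustment over 12507 genes that reached a signal of 10 in 3 libraries or more. The fit was tested on simulated data. RPKM used the signal total of a library and GENCODE vM21 exon lengths. Positions, synonyms and promoters are those of RefSeq on GRCm38.p6. An exact permutation test of 3 against 3 libraries cannot go below 0.1 and was not used.

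The members and gene lists were chosen with earlier results of these data known, and the lists rest on knowledge of the pathway. Signals are printed for all members listed, a wider choice than the rule set, which asked for the 3 largest log2 fold changes of each role (all, in roles of up to 5 members) and members lower or not called. Of the other lists the 5 largest rises and falls with an adjusted p under 0.05 are named, with Irf2, Socs1, Socs3, Tbk1, Tlr3 and Cgas, except 1 gene that is not reported here. Alternatives were pseudocounts of 0.5 and 5, no filter, a signal of at least 10 in all 6 libraries, library-size and TMM scaling, limma-voom, the replicate number as a block and each library left out in turn, and for promoters another motif and window.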

Additional observations from a re-analysis of the deposited data

How the results depend on the processing

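The counts of 32 members called higher and 4 called lower were the same under both pseudocounts, without the filter, under library-size and TMM scaling and with limma-voom. With each library left out in turn, 27 to 31 members were called higher and 4 to 5 lower. Over the same fits, 3269 to 3334 of all tested genes were called higher and 3114 to 3344 lower. With a signal of at least 10 required in all 6 libraries, 38 members were tested, 26 of them higher and 4 lower. Of all genes under this filter, 3353 were called higher and 3405 lower. The median log2 fold change then fell to 0.74 for all members and 0.97 for effectors, since the members of low Scr signal drop out. For other interferon-induced genes the median was 0.36 under that filter and 0.37 without a filter, and it ranged from 0.38 to 0.53 over the fits without 1 library. The other ranges over the left-out libraries were 4 to 7 for members whose MICT1 KO values lay below the Scr values, 0.68 to 0.84 for the median of the sensors, 0 to 1 for receptor and kinase genes called lower, 0.0033 to 0.22 for their median, 1.01 to 1.44 for the median of the effectors and -0.015 to 0.0075 for that of other regulators, whose sign so turned. The cause of these moves was not tested. With C as the first base between the GAAA repeats, the promoter motif was found in 9 of 38 members and 0.685% of all promoters, and 10 of 38 members held the motif as first searched before the start.

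The deviations of same-numbered libraries from their group means had correlations of -0.024, -0.015 and 0.064 across genes. Those of differently numbered libraries ran from -0.043 to 0.056. Correlations this weak, from 3 libraries per group, cannot tell whether the numbers pair the samples. With the replicate block 32 members were called higher and 4 lower, and 3543 and 3512 of all tested genes, against 3569 and 3544 without it. Low signals limit Zbp1 and the 6 members tested only through their MICT1 KO values.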

Other observations

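The response element core (GAAA, any 2 bases, GAAA) was also found in promoters outside the pathway. Of 25 other pathway genes tested that hold it, 15 were called higher in MICT1 KO and 1 lower (adjusted p under 0.05 from limma-trend). Beside them, 36.7% of all tested genes with it were called higher and 25.4% lower. Of 42 other pathway genes without it 14 were called higher and 12 lower, beside 28.1% and 28.7% of all tested genes without it. The pathway lists were made with earlier results known, and some of their genes were tested only because of the group where they are high. Of the 315 tested genes that hold it and belong to none of the lists, 104 were called higher and 88 lower, a median log2 fold change of -0.016, and of the 9575 such genes without it 2684 were called higher and 2751 lower. These counts are a description, and no difference between them was tested.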
